A study of Mus musculus with 24 samples.

Results

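The 38 genes described here encode the proteins that load and fire replication origins, copy DNA in S phase, control entry into S phase and carry a cell through mitosis. They were chosen as a list of gene symbols, with earlier results of these data known. All 38 were found among the 17537 genes listed in at least 1 of 24 tables of mouse liver RNA sequencing. The list was read as 24 licensing and S phase genes (12 for origin licensing and firing, 8 for S phase synthesis and 4 for G1/S control) and 14 mitosis genes. The livers came from male C57BL/6 mice of 20 to 30 g, and no other genotype or allele was labelled. Gavage was with 0.5% CMC (the vehicle), with ethanol at 1 g/kg body weight, with di(2-ethylhexyl) phthalate (DEHP), a plasticiser, at 2500 mg/kg body weight, or with DEHP and ethanol together at those doses (the combination). CMC is named for the vehicle group alone. Had the treated animals received none, a treatment could not be separated from its carrier here. Each group has 6 libraries while 12 mice per group are labelled, and nothing ties a library to an animal, so each p-value rests on the scatter among libraries, some of which may be technical. Age, treatment length and hour of collection are not stated in the labels.

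In a cell that will divide, the origin recognition complex, Cdc6 and Cdt1 load the Mcm2 to Mcm7 helicase onto DNA during G1, and Cdc45 and the GINS complex switch it on in S phase. Cyclin D and cyclin E kinases release E2F factors, which drive many of these genes, while cyclin B and Cdk1, the Aurora and Polo-like kinases and the Cdc20-bound anaphase-promoting complex run mitosis. Most hepatocytes of an adult liver rest outside the cycle, and peroxisome proliferators such as DEHP, which activate the nuclear receptor PPARalpha, are known to raise hepatocyte DNA synthesis in rodents.

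Promoter words known from cell cycle genes were counted in both sets. RefSeq promoter windows of GRCm38.p6, each with 250 bases before and 50 bases after an annotated start site, were found by gene identifier for 30 of the 38 members. Those without a window in that table were Mcm4, Gins1, Gins2, Ccnd1, Ccne2, Ccna2, Aurkb and Foxm1. Each window was searched on both strands for 4 E2F words (TTTCCCGC, TTTCGCGC, TTTGCCGC and TTTGGCGC), for the cell cycle homology region (CHR, TTTGAA) and for the NF-Y box CCAAT. Matches can share bases, as 2 E2F words on opposite strands do in Mcm6. An E2F word was present for 8 of the 19 licensing and S phase genes with a window (42.1%: Mcm3, Mcm5, Mcm6, Mcm7, Cdc6, Cdt1, Lig1 and Uhrf1), for Cdk1 alone among 11 mitosis genes (9.09%), in 2.6% of all 27025 genes with a window, and in 2.26% of all 32851 windows. The CHR was present for 8 of 11 mitosis genes (72.7%), for Mcm2 and Cdc45 among the 19 (10.5%), in 20.2% of all genes and in 17.9% of all windows. CCAAT was present for 10 of 11 mitosis genes (90.9%), for 11 of the 19 (57.9%), in 41.1% of all genes and in 37.4% of windows. A match is a string of letters, not a shown binding site, and these shares carry no test.

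**Figure D1:**
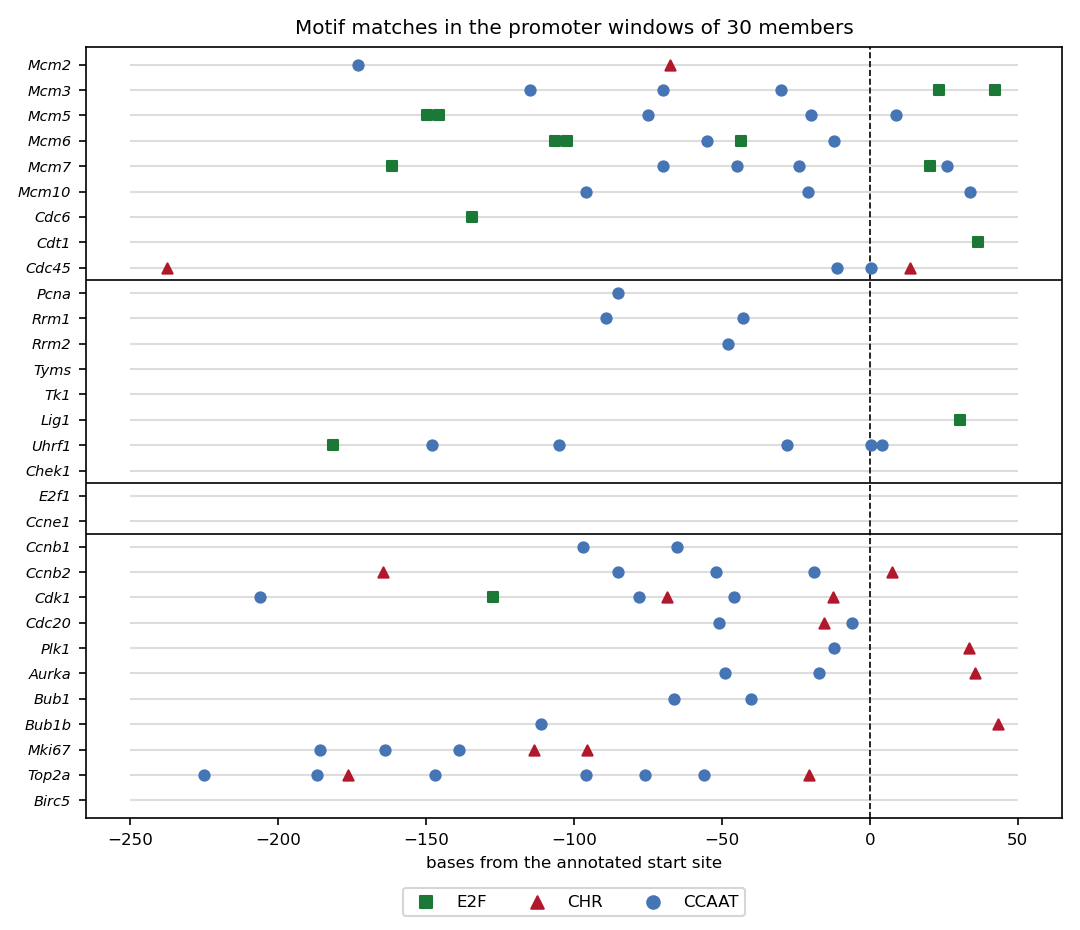
Matches to 3 motifs in the promoter windows of the 30 members with a window, by bases from the annotated start site; grey lines mark the 300 bases searched, horizontal black lines part the gene groups, and genes with several windows show the matches of all of them. E2F words (squares) fall on licensing and S phase genes and on Cdk1, while CHR words (triangles) fall on 8 of the 11 mitosis genes and on Mcm2 and Cdc45.

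The 250 bases upstream of the start are printed for the called genes with the smallest adjusted p-values in DEHP against vehicle, 4 of the licensing and S phase genes with a window and 2 mitosis genes, to show these words in place. Bases are in lower case, 5′ to 3′ on the gene's strand, and capitals mark the E2F, CHR and CCAAT words on either strand.
Mcm6, chr1:128359706-128359955, minus strand: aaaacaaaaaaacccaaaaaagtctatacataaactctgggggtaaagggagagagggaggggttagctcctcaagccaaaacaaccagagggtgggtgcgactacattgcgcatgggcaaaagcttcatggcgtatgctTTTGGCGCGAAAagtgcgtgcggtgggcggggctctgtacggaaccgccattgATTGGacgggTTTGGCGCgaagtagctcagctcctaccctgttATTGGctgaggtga
Lig1, chr7:13276925-13277174, plus strand: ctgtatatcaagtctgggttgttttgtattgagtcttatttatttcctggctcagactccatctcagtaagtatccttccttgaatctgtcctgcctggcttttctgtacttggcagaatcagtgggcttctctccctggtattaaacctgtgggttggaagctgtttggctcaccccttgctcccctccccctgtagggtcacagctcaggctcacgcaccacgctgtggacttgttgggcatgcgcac
Mcm2, chr6:88898781-88899030, minus strand: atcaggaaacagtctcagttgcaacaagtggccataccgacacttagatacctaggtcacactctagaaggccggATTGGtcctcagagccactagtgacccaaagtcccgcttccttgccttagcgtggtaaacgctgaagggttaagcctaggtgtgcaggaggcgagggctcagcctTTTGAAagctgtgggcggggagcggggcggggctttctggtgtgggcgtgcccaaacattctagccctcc
Mcm3, chr1:20820313-20820562, minus strand: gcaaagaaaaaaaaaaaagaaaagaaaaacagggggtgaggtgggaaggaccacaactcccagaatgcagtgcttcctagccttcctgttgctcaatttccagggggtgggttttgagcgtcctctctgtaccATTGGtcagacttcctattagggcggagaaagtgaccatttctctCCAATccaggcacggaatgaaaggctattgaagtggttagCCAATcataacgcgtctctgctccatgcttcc
Cdc20, chr4:118437344-118437593, minus strand: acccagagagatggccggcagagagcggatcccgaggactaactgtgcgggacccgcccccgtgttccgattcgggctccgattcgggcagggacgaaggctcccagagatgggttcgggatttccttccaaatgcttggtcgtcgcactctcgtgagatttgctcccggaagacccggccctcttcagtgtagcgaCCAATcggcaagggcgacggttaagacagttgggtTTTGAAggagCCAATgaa
Aurka, chr2:172370571-172370820, minus strand: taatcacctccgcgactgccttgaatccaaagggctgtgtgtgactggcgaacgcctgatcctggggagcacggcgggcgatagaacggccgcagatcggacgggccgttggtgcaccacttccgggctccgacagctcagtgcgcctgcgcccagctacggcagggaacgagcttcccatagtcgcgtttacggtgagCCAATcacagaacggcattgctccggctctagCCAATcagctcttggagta

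Mcm6 holds 3 E2F words, 2 of which overlap in 1 run of capitals, and 2 CCAAT boxes. The Mcm2 stretch has a CHR and a CCAAT box, and Mcm3 has 3 CCAAT boxes. Cdc20 shows a CHR between 2 CCAAT boxes within 53 bases of the start, and Aurka has 2 CCAAT boxes. The Aurka stretch lies inside the annotated span of the gene (chromosome 2, 172356190 to 172370886), since its window uses a start site within that span. Further matches lie past the start site and are not printed, with 2 E2F words at bases 20 to 27 and 39 to 46 for Mcm3 and a CHR at bases 33 to 38 for Aurka. Lig1 has 3 windows, of which the most upstream is printed and holds none of the words, while another holds an E2F word at bases 27 to 34 past its own start.

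Total expected counts were 7324793 to 8016662 per library. As summed CPM (expected counts scaled to a common library total), the 8 hepatocyte markers held 83330 to 110385 with vehicle and 85441 to 107287 with ethanol. They held 59348 to 76416 with DEHP and 63464 to 71648 with the combination. Of the 8, DEHP called 6 lower and the combination 7, beside 11.6% and 17.4% of all tested genes. Ethanol called 1 higher and 2 lower, beside 14.2% and 14.5%. Of the 11 Kupffer cell markers, edgeR called 0 against vehicle (at an unadjusted p below 0.05, 0 with ethanol, 0 with DEHP and 1, lower, with the combination), and the summed level was 182 to 544 with vehicle, 200 to 385 with ethanol, 269 to 748 with DEHP and 247 to 347 with the combination. Of these 11, 10 had a positive log2 change with DEHP (median 0.33, beside -0.02 for all tested genes), 3 with ethanol and 5 with the combination. In the combination against DEHP, 10 of the 11 were negative (median -0.32, beside 0.0 for all tested genes). The 9 neutrophil markers summed to at most 3.2 with vehicle, 2.8 with ethanol and 2.7 with the combination. With DEHP they summed to 1.3 to 36.4 (median 2.0). The 36.4 was in DEHP replicate 1, which is also the highest DEHP library for Mcm3, Mcm7, Cdt1, Gins2 and Ccnd1. Of the 3 neutrophil markers tested, DEHP and the combination each called 1 higher, beside 14.4% and 19.3% of all tested genes. With no filter DEHP called 4 of 9 higher (7.57% of all genes) and the combination 0 (10.2%). Whether the DEHP calls rest on replicate 1 was not tested. Of 10 endothelial markers, 4, 2 and 2 were lower and 0 higher with ethanol, DEHP and the combination. The shares of all tested genes called lower were 14.5%, 11.6% and 17.4%. Vehicle replicate 1 and combination replicate 6 held muscle transcripts (7830 and 5455 CPM over 7 markers) and DEHP replicate 6 pancreatic ones (481). The part of the marker levels in the members' changes was not tested.

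Across the list, DEHP called the most members. In bulk liver RNA, more cells of a kind and more RNA per cell cannot be told apart. Expected counts were tested in edgeR's quasi-likelihood model over all genes with at least 1 FPKM in at least 6 libraries (10697 genes), and a gene was called at a Benjamini-Hochberg adjusted p below 0.05 over all of them. Of the 38 members, 22 passed that filter, 19 of the 24 licensing and S phase genes and 3 of the 14 mitosis genes. Cdc45, Gins2, Birc5 and Cdc20 reached 1 FPKM in 8, 9, 7 and 11 libraries, most of them in groups where they were high, so counts over the members that passed are a description. In DEHP against vehicle 14 of the 22 were higher and 0 lower, beside 14.4% of all tested genes higher and 11.6% lower. In the combination against vehicle 9 were higher and 1 lower, beside 19.3% and 17.4%. In ethanol against vehicle 3 were higher and 1 lower, beside 14.2% and 14.5%, which for the rises (13.6% of members) is the share of genes at large. With no filter on low counts, which brings in every member and 17524 genes, DEHP called 14 of 38 higher (7.57% of all genes) and 0 lower (6.58%), the combination 7 higher (10.2%) and 2 lower (10.3%), and ethanol 3 higher (7.55%) and 2 lower (8.78%). Without the 3 libraries with transcripts of other tissues, DEHP against vehicle called the same 14 members higher, beside 10.7% of all genes higher and 8.93% lower. The combination then lost Cdc45 and gained Mcm7, so that 9 were higher and Rrm2 lower, beside 16.9% and 18.1%. These comparisons share the 6 vehicle libraries.

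**Figure D2:**
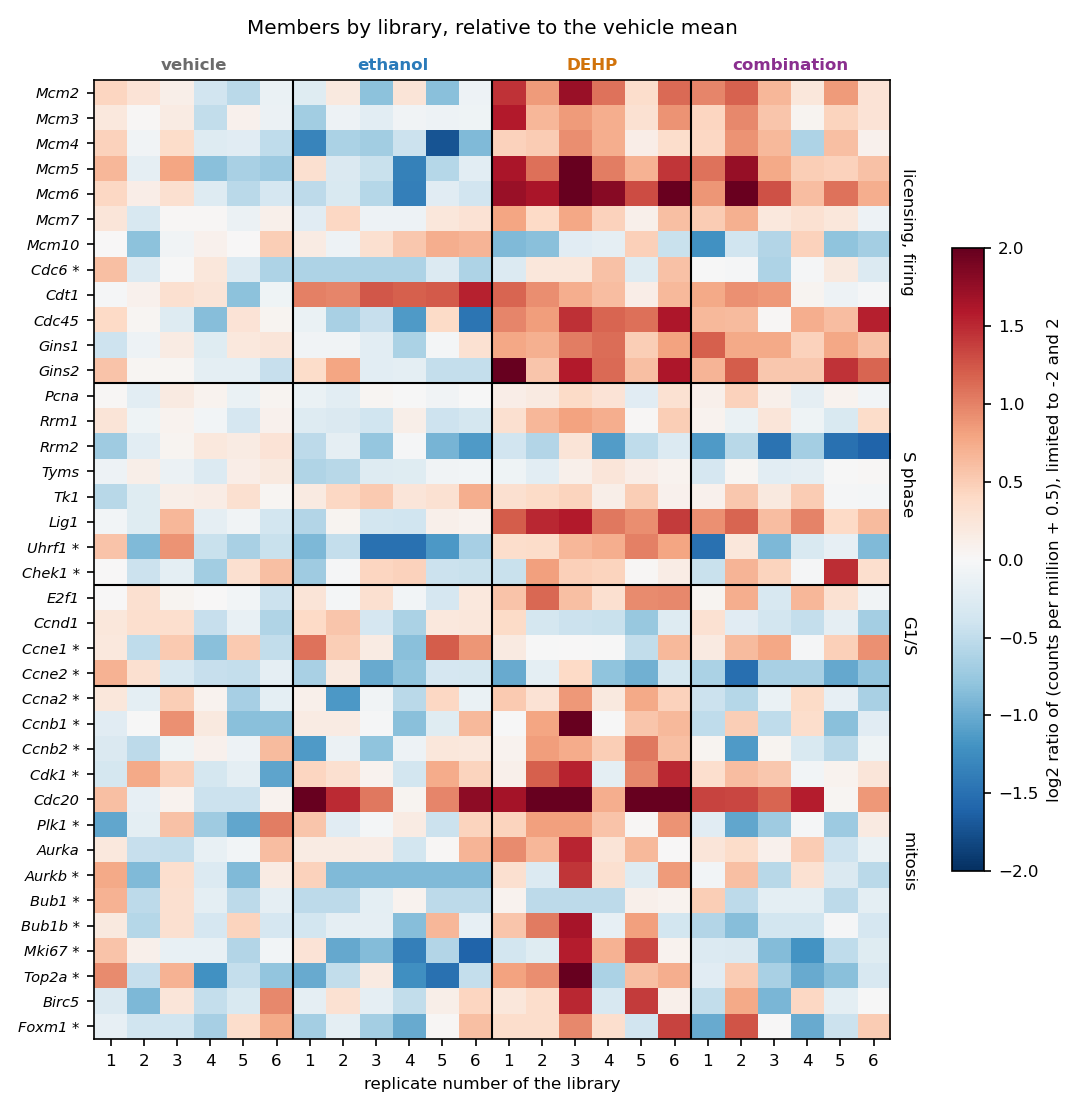
Log2 ratio of each library's CPM (plus 0.5) to the vehicle mean, for all 38 members (rows, in groups by role) and 24 libraries (columns); the colour scale stops at -2 and 2, and asterisks mark the 16 members below the filter. Mcm2, Mcm5, Mcm6, Gins2 and Lig1 are red across the DEHP libraries, Mcm4 is blue with ethanol, Rrm2 is blue with the combination, and DEHP replicate 3 is the reddest column among the mitosis genes.

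The 6 subunits of the Mcm2 to Mcm7 helicase, which unwinds DNA ahead of the fork, all had a positive log2 change with DEHP. The rise was called for 5 of 6, and Mcm4 (0.58, edgeR adjusted p = 0.0875) missed the threshold. Their expected counts summed to 223 to 345 per library with vehicle (median 245), 210 to 292 with ethanol (223.5), 364 to 769 with DEHP (569) and 317 to 661 with the combination (432.5). Every DEHP library was above every vehicle and ethanol library, and the combination overlapped vehicle at its lower end.

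Mcm6 (NCBI gene 17219, chromosome 1, 128331575 to 128359705, GRCm38.p6 as for all positions here) led them. Its FPKM was 1.2 to 2.42 (median 1.72) with vehicle, 0.6 to 1.53 (median 1.3) with ethanol, 4.75 to 11.1 (median 6.65) with DEHP and 2.84 to 7.74 (median 3.79) with the combination. All 6 DEHP libraries and all 6 combination libraries lay above the highest vehicle library. The log2 change of Mcm6 was 1.96 ± 0.25 (adjusted p = 1.89e-06) in DEHP against vehicle (± an SE derived from edgeR's F statistic, here and below) and 1.25 ± 0.25 (adjusted p = 0.000354) in the combination against vehicle. With ethanol alone it was -0.51 ± 0.28 (adjusted p = 0.167). Mcm5, another helicase subunit, had an FPKM of 0.4 to 1.58 (median 0.6) with vehicle, 0.24 to 1.09 (median 0.62) with ethanol, 1.47 to 4.0 (median 2.24) with DEHP and 1.21 to 3.19 (median 1.43) with the combination. Vehicle was split, with replicates 1 and 3 at 1.41 and 1.58 and the others at most at 0.73. Mcm5 rose by 1.53 ± 0.35 (adjusted p = 0.00204) with DEHP and by 1.06 ± 0.35 (adjusted p = 0.0208) with the combination. The latter call was lost without combination replicate 2 (adjusted p = 0.0852), without vehicle replicate 4 and without vehicle replicate 6 (0.0502 each).

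Mcm2 (NCBI gene 17216, chromosome 6, 88883474 to 88898780) had an FPKM of 0.93 to 1.97 (median 1.42) with vehicle, 0.73 to 1.73 (median 1.25) with ethanol, 1.87 to 5.06 (median 3.27) with DEHP and 1.7 to 3.44 (median 2.53) with the combination. The lowest DEHP library alone touched the vehicle range. The Mcm2 change was 1.23 ± 0.25 (adjusted p = 0.000601) with DEHP and 0.80 ± 0.25 (adjusted p = 0.0134) with the combination. For Mcm3 the FPKM was 1.17 to 1.99 (median 1.78) with vehicle, 0.98 to 1.62 (median 1.58) with ethanol, 2.16 to 5.45 (median 3.08) with DEHP and 1.78 to 3.51 (median 2.37) with the combination. DEHP replicate 1, at 5.45, stood apart, and even the lowest DEHP library exceeded vehicle. Mcm3 rose by 0.95 ± 0.20 (adjusted p = 0.000861) with DEHP, and by 0.52 ± 0.20 (adjusted p = 0.0416) with the combination, a call lost in 8 of the refits that left out 1 library (vehicle replicates 2, 4, 5 and 6, combination replicates 1, 2, 3 and 5, adjusted p = 0.0544 to 0.139), with no filter (0.0697), with the gene length trend removed (0.0501) and by limma on log2(TPM + 1) (0.0886). Mcm7, the most abundant subunit per length, had an FPKM of 4.79 to 7.28 (median 6.19) with vehicle, 5.32 to 8.23 (median 6.52) with ethanol, 6.69 to 10.8 (median 9.02) with DEHP and 5.6 to 10.3 (median 7.44) with the combination. The vehicle and DEHP ranges of Mcm7 shared their edges. Its rise with DEHP was 0.54 ± 0.15 (adjusted p = 0.00752), and the combination gave 0.35 ± 0.15 (adjusted p = 0.0623), which passed without combination replicate 6 (0.42, adjusted p = 0.0204). Mcm7 shares 321 exon bases with Ap4m1 and 64 with Cops6, both on the opposite strand, by all exons of the GENCODE vM21 annotation, which is used for all overlaps here. The labels do not say whether counting used strand, and whether the counted transcripts reach into the shared bases was not tested.

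Mcm4 (NCBI gene 17217, chromosome 16, 15623897 to 15637400) was the subunit that fell with ethanol. Its FPKM was 0.82 to 1.73 (median 1.08) with vehicle, 0.27 to 0.87 (median 0.65) with ethanol, 1.36 to 2.47 (median 1.76) with DEHP and 0.74 to 2.41 (median 1.8) with the combination. The ethanol libraries were the low ones, with 1 of them inside the vehicle range, and DEHP and vehicle overlapped. Mcm4 fell with ethanol (-0.96 ± 0.27, adjusted p = 0.011), and was at 0.58 ± 0.25 (adjusted p = 0.0875) with DEHP and 0.46 ± 0.25 (adjusted p = 0.155) with the combination, which passed without combination replicate 4 (0.60, adjusted p = 0.0447). The combination stood above ethanol by 1.42 ± 0.27 (adjusted p = 0.00023), in 6 of 6 libraries relative to the ethanol mean. For Mcm4 the difference between ethanol's effect with and without DEHP was not called (interaction 0.84 ± 0.37, adjusted p = 0.158).

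Among the factors that load the helicase, Cdt1 (NCBI gene 67177, chromosome 8, 122568015 to 122573130), which brings it to the origin, rose with ethanol and with DEHP. Cdt1 FPKM was 0.56 to 1.53 (median 1.2) with vehicle, 2.57 to 3.9 (median 3.04) with ethanol, 1.32 to 2.92 (median 2.04) with DEHP and 1.08 to 2.45 (median 1.7) with the combination. No ethanol library overlapped any vehicle library. It rose by 1.44 ± 0.25 (adjusted p = 0.000191) with ethanol and by 0.83 ± 0.25 (adjusted p = 0.017) with DEHP, and the combination was at 0.56 ± 0.26 (adjusted p = 0.0884), which passed without its replicate 5 or 6 (adjusted p = 0.0457 and 0.0496). The DEHP call was lost without DEHP replicate 1 (adjusted p = 0.0515), the library that is also highest for Kupffer cell and neutrophil markers. The combination was lower than ethanol alone (log2 change -0.88 ± 0.24, adjusted p = 0.00669), again with no overlap. Ethanol's effect on Cdt1 with DEHP differed from that without it, with an interaction of -1.71 ± 0.35 (adjusted p = 0.00443).

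Cdc45 and the GINS subunits, which complete the active helicase, rose with DEHP. Cdc45 FPKM was 0.14 to 0.7 (median 0.5) with vehicle, 0.0 to 0.72 (median 0.24) with ethanol, 1.05 to 2.0 (median 1.35) with DEHP and 0.48 to 1.91 (median 0.88) with the combination, and 1 ethanol library listed none. The DEHP libraries lay above all vehicle and ethanol libraries. Cdc45 rose by 1.59 ± 0.40 (adjusted p = 0.00427) with DEHP and by 1.06 ± 0.41 (adjusted p = 0.0441) with the combination. That second call was lost without combination replicate 6 (adjusted p = 0.143), whose Cdc45 level of 1.91 FPKM was the highest of its group and which also holds muscle transcripts, without the 3 libraries with transcripts of other tissues (0.111), with no filter (0.107), with the gene length trend removed (0.0731), by limma on log2(FPKM + 0.1) (0.0742) and in 10 further refits without 1 library (vehicle replicates 2, 3, 4 and 6, ethanol replicate 3, DEHP replicate 4, combination replicates 1, 2, 4 and 5, adjusted p = 0.051 to 0.0985). Gins1 FPKM was 1.7 to 3.39 (median 2.64) with vehicle, 1.4 to 3.22 (median 2.35) with ethanol, 3.71 to 6.07 (median 4.66) with DEHP and 3.58 to 6.39 (median 4.56) with the combination. Both DEHP and the combination cleared vehicle in every library. Gins1 rose by 0.95 ± 0.20 (adjusted p = 0.00097) and by 0.89 ± 0.20 (adjusted p = 0.00104) in turn. Gins2 was low, with 173 expected counts over all 24 libraries and an FPKM of 0.15 to 0.89 (median 0.37) with vehicle, 0.15 to 1.15 (median 0.29) with ethanol, 0.88 to 3.47 (median 2.0) with DEHP and 0.86 to 2.09 (median 1.33) with the combination. Its highest vehicle library and its lowest DEHP and combination libraries were level. It rose by 2.16 ± 0.47 (adjusted p = 0.00102) with DEHP and by 1.65 ± 0.49 (adjusted p = 0.00825) with the combination. Of its 4097 exon bases, 2758 are shared with Gse1 on the opposite strand, while the deposited length of Gins2 is 1061 bases. Cdc45 shares 209 exon bases with Ufd1.

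Mcm10 (NCBI gene 70024, chromosome 2, 4990724 to 5012791), a replisome factor that helps the helicase start, did not follow the helicase. It held 7562 expected counts, more than any other member, and its row lists 3 transcripts, 1 of them without a RefSeq accession. Mcm10 FPKM was 7.01 to 17.7 (median 12.5) with vehicle, 11.6 to 20.7 (median 17.0) with ethanol, 6.7 to 17.5 (median 9.91) with DEHP and 5.32 to 17.3 (median 8.07) with the combination. The groups overlapped widely, and combination replicate 4 at 17.3 and DEHP replicate 5 at 17.5 stood above the others of their groups. Its log2 change was -0.30 ± 0.25 (adjusted p = 0.391) with DEHP and 0.49 ± 0.24 (adjusted p = 0.127) with ethanol. Of the 6 comparisons, the combination against ethanol was called, with Mcm10 lower (-0.93 ± 0.25, adjusted p = 0.00556). Against vehicle the combination was at -0.44 ± 0.25 (adjusted p = 0.171), and without combination replicate 4 Mcm10 was called lower there (-0.73, adjusted p = 0.0127).

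The S phase synthesis genes were split. Lig1 (NCBI gene 16881, chromosome 7, 13277175 to 13311426), the ligase that joins Okazaki fragments, rose most. Its FPKM was 0.72 to 1.65 (median 0.88) with vehicle, 0.6 to 1.06 (median 0.88) with ethanol, 2.04 to 3.28 (median 2.69) with DEHP and 1.35 to 2.42 (median 1.81) with the combination. Vehicle replicate 3, at 1.65, was the exception in its group, and all DEHP libraries were above it. Lig1 rose by 1.43 ± 0.21 (adjusted p = 1.19e-05) with DEHP and by 0.91 ± 0.21 (adjusted p = 0.00127) with the combination. It shares 247 exon bases with Zswim9 on the opposite strand.

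The ribonucleotide reductase subunits, which make the deoxynucleotides, were each called in 1 comparison, and not in the same one. Rrm1, the large subunit, had an FPKM of 1.62 to 2.51 (median 2.1) with vehicle, 1.53 to 2.26 (median 1.64) with ethanol, 2.14 to 3.72 (median 3.18) with DEHP and 1.65 to 2.72 (median 2.08) with the combination. All DEHP libraries but replicate 5 were above all vehicle libraries. Rrm1 rose with DEHP (0.54 ± 0.14, adjusted p = 0.00696) and was at 0.04 ± 0.15 (adjusted p = 0.847) with the combination. Rrm2 (NCBI gene 20135, chromosome 12, 24708254 to 24714146), the subunit whose supply limits the enzyme in cycling cells, had an FPKM of 1.75 to 3.74 (median 3.31) with vehicle, 1.27 to 3.0 (median 1.88) with ethanol, 1.28 to 3.71 (median 2.18) with DEHP and 0.85 to 2.01 (median 1.1) with the combination. Its vehicle libraries were the highest group by median, with replicate 1 low, and 4 of 6 combination libraries were below every vehicle library. Rrm2 fell with the combination (-1.22 ± 0.27, adjusted p = 0.00102), and was at -0.43 ± 0.26 (adjusted p = 0.231) with DEHP and -0.52 ± 0.26 (adjusted p = 0.129) with ethanol, the latter called by limma on log2(TPM + 1) (-0.55, adjusted p = 0.0339). Against ethanol the combination was at -0.70 ± 0.28 (adjusted p = 0.0618), and DESeq2 called it (adjusted p = 0.0405), as did 5 refits that left out 1 library (vehicle replicate 1, ethanol replicate 6, DEHP replicate 4, combination replicates 2 and 4).

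Tk1, the thymidine salvage kinase, had an FPKM of 9.18 to 17.2 (median 14.6) with vehicle, 15.8 to 23.2 (median 17.8) with ethanol, 14.6 to 19.6 (median 17.5) with DEHP and 13.4 to 20.4 (median 15.3) with the combination. The ethanol and vehicle ranges overlapped at 15.8 to 17.2. Tk1 rose with ethanol (0.49 ± 0.15, adjusted p = 0.0135), a call that limma on log2(TPM + 1) did not make (adjusted p = 0.0528), and was at 0.30 ± 0.15 (adjusted p = 0.127) with DEHP. Its exons share 83 bases with Afmid on the opposite strand. Pcna, the sliding clamp of the polymerases, ranged from 19.8 to 32.5 FPKM over all libraries and Tyms, which makes thymidylate, from 1.96 to 3.62. Neither was called in any of the 6 comparisons by edgeR, while limma on log2(TPM + 1) called Tyms lower with ethanol (-0.32, adjusted p = 0.0226). Their changes with DEHP were 0.17 ± 0.11 (adjusted p = 0.248), and 0.03 ± 0.11 (adjusted p = 0.855). Tyms is the one member whose deposited counts were not whole numbers in any library, and the labels do not say how reads shared between sequences were split.

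At the G1/S boundary, E2f1, a factor that switches on many replication genes, had an FPKM of 1.1 to 2.54 (median 1.56) with vehicle, 1.26 to 1.99 (median 1.66) with ethanol, 1.99 to 3.62 (median 2.8) with DEHP and 1.21 to 2.7 (median 1.79) with the combination. Vehicle replicate 2, at 2.54, reached into the DEHP range and the other 5 vehicle libraries did not. E2f1 rose with DEHP (0.84 ± 0.21, adjusted p = 0.00399) and was at 0.31 ± 0.21 (adjusted p = 0.267) with the combination. Ccnd1, cyclin D1, ranged from 4.32 to 10.9 FPKM and was not called in any comparison (DEHP -0.28 ± 0.22, adjusted p = 0.369). Without combination replicate 1 it was called lower in the combination against ethanol (-0.60, adjusted p = 0.0457). Of its 4709 exon bases, 1100 are shared with LTO1 on the opposite strand.

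**Figure D3:**
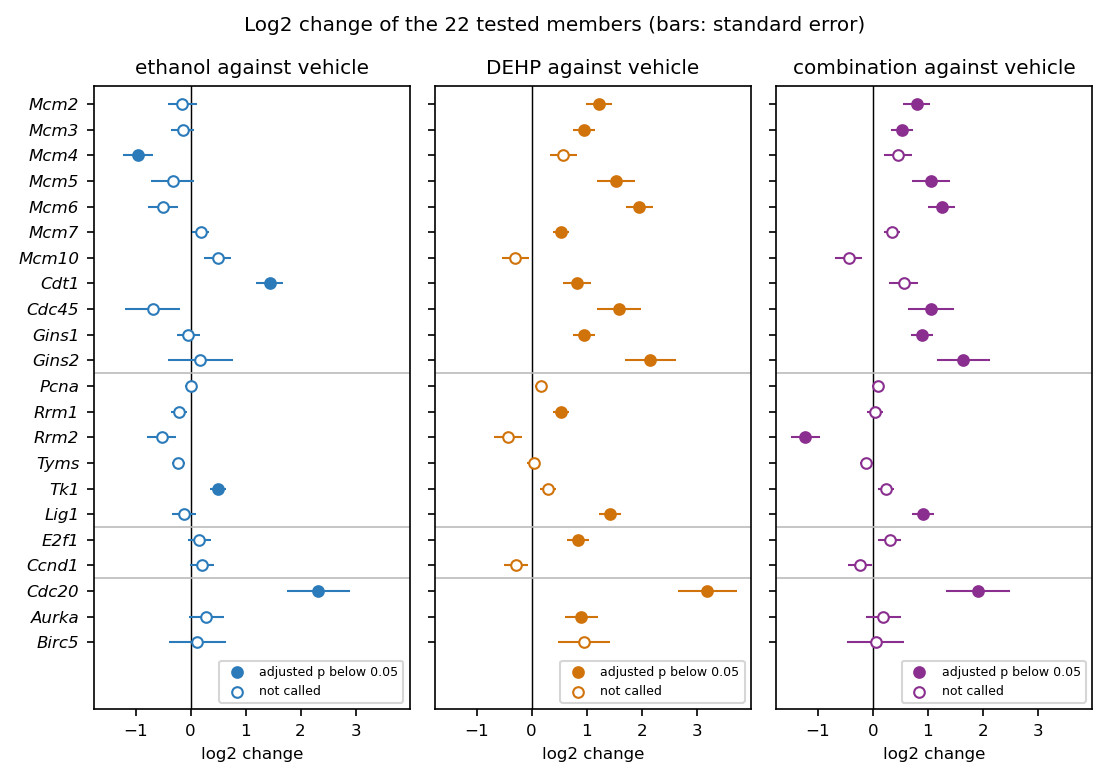
Log2 change (points) and its standard error (bars) of the 22 tested members in 3 comparisons against the same vehicle libraries; filled points passed an adjusted p of 0.05. Filled points to the right are most frequent for DEHP (14), fewer for the combination (9) and 3 for ethanol, with Mcm4 (ethanol) and Rrm2 (combination) filled on the left.

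**Figure D4:**
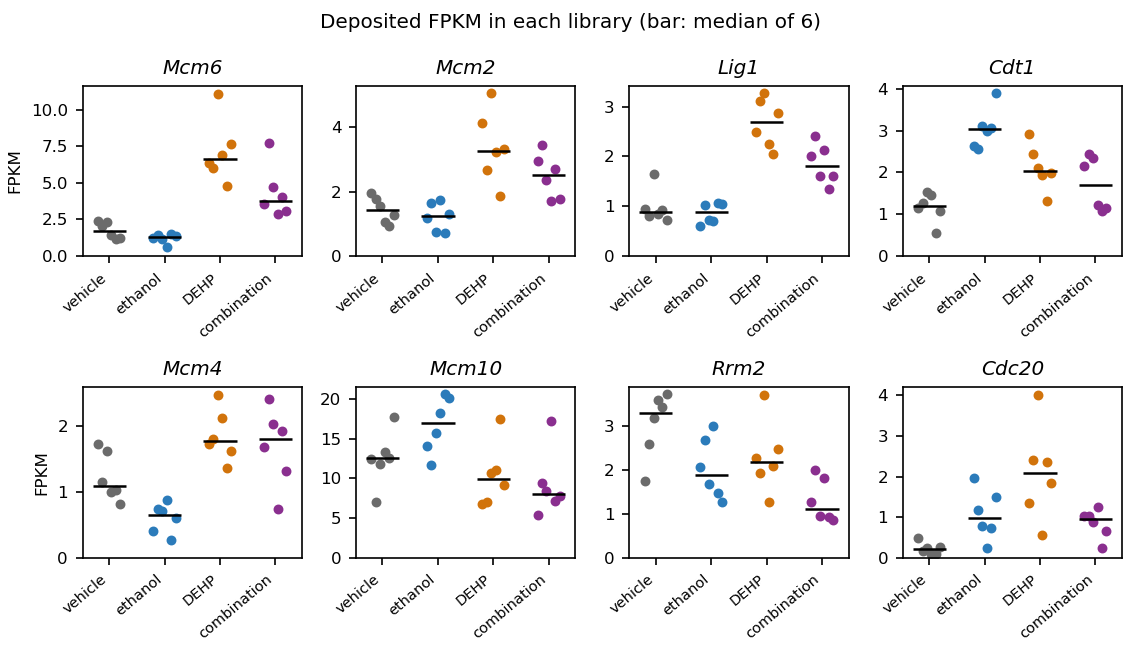
Deposited FPKM of 8 members in each of the 24 libraries, by group, with a bar at the median of 6 and axes starting at 0. Mcm6 and Lig1 separate DEHP from vehicle, Cdt1 separates ethanol from vehicle, and Rrm2 is lowest with the combination (median 1.1).

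The mitosis genes were near the limit of detection. All 14 together held 62 to 118 expected counts per library with vehicle (median 88.5), 45 to 115 with ethanol (89), 113 to 364 with DEHP (181) and 62 to 122 with the combination (85). DEHP replicate 3 held 364, and of the others replicate 4 alone, at 113, fell inside the vehicle range. Replicate 3 was the highest DEHP library for 10 of the 14 genes.

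**Figure D5:**
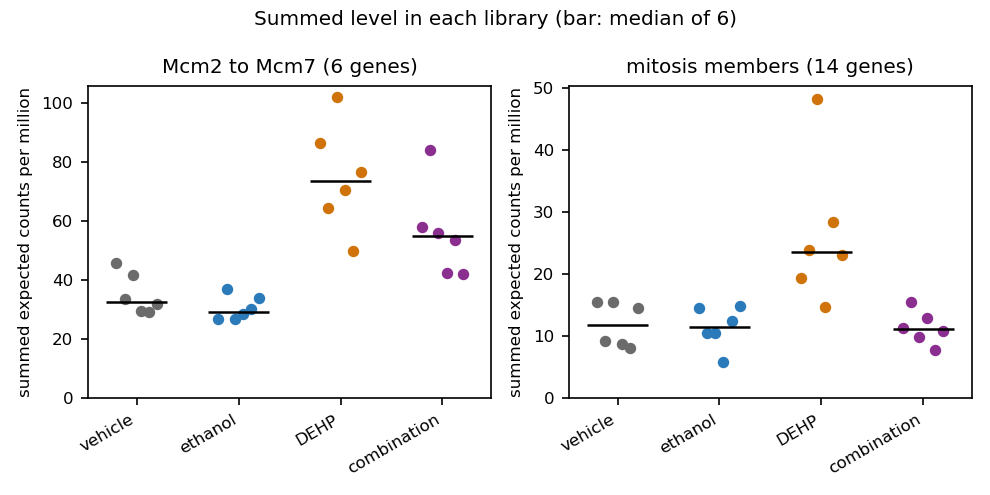
Summed CPM of the 6 helicase subunits Mcm2 to Mcm7 (left) and of the 14 mitosis genes (right) in each library, with a bar at the median of 6. The helicase sum is raised in DEHP (median 73.4) and combination libraries (54.6) over vehicle (32.5), while the mitosis sum is raised in DEHP (23.5) and the combination (11.1) overlaps vehicle (11.7).

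Cdc20 (NCBI gene 107995, chromosome 4, 118432901 to 118437343), the activator of the anaphase-promoting complex, had the largest log2 change of the 22 tested members in DEHP against vehicle. It held 1, 2.5 and 6 with vehicle, 3, 12.5 and 25 with ethanol, 7, 25.5 and 49 with DEHP, and 3, 12 and 16 with the combination (lowest, median and highest expected count of 6 libraries). In FPKM these were 0.08 to 0.49 (median 0.2) with vehicle, 0.24 to 1.97 (median 0.98) with ethanol, 0.56 to 4.0 (median 2.09) with DEHP and 0.23 to 1.26 (median 0.94) with the combination. Every DEHP library was above every vehicle library, and ethanol and the combination touched the vehicle range with 1 library each. The log2 change of Cdc20 was 3.19 ± 0.53 (adjusted p = 6.31e-05) with DEHP, 2.32 ± 0.57 (adjusted p = 0.00362) with ethanol and 1.92 ± 0.59 (adjusted p = 0.0108) with the combination. It was still called with DEHP when replicate 3 was left out (2.91, adjusted p = 0.000236). The ethanol change in the presence of DEHP less that in its absence, the interaction, was -3.60 ± 0.71 (adjusted p = 0.00302). Cdc20 shares 53 of its exon bases with Elovl1 on the opposite strand.

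Aurka, the Aurora kinase of the spindle poles, held 8, 11.5 and 21 with vehicle, 9, 15 and 23 with ethanol, 13, 21.5 and 43 with DEHP, and 9, 15 and 20 with the combination. The groups overlapped, with DEHP replicate 3 the highest library. Aurka was called higher with DEHP (0.90 ± 0.30, adjusted p = 0.0289), a call lost without DEHP replicate 3 (adjusted p = 0.103), without DEHP replicate 1 (0.0578), without vehicle replicates 2, 3 or 4 (0.0646, 0.0672 and 0.0502) with no filter (0.055) and with the 2 compared groups alone in the model (0.0688). Birc5, survivin of the chromosomal passenger complex, held 2 to 27 counts per library and was not called in any comparison (DEHP 0.95 ± 0.48, adjusted p = 0.137). It passed without vehicle replicate 6 (adjusted p = 0.0337).

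The remaining 16 members were below the filter, and their expected counts are given as the lowest, median and highest of 6 libraries. Cdk1, the kinase of mitotic entry, held 1, 4.5 and 13 with vehicle, 4, 9.5 and 13 with ethanol, 5, 17 and 25 with DEHP, and 6, 8.5 and 12 with the combination. It could be tested under edgeR's own filter (filterByExpr, 11742 genes), where it rose with DEHP (log2 change 1.35 ± 0.43, adjusted p = 0.0215), beside 13.4% of all genes called higher. With no filter the rise was 1.33 ± 0.45 (adjusted p = 0.0437). Its cyclin partners were not called. Ccna2, cyclin A2, held 7, 12.5 and 20 with vehicle, 4, 12.5 and 19 with ethanol, 16, 20.5 and 27 with DEHP, and 7, 10.5 and 19 with the combination. Ccnb1, cyclin B1, held 0, 2.5 and 9 with vehicle, 0, 3.5 and 7 with ethanol, 3, 6.5 and 26 with DEHP, and 0, 1.5 and 6 with the combination. Ccnb2, cyclin B2, held 2, 4 and 9 with vehicle, 0, 4 and 6 with ethanol, 5, 9.5 and 13 with DEHP, and 0, 3.5 and 5 with the combination. For these cyclins the DEHP median was the highest of the 4 groups, and none was called under edgeR's own filter, where tested, or with no filter. Ccna2 shares 510 exon bases with Exosc9 on the opposite strand.

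The mitotic kinases Plk1 and Aurkb held few reads. Plk1 counts were 0, 2 and 12 with vehicle, 2, 4.5 and 8 with ethanol, 4, 9 and 11 with DEHP, and 0, 2 and 5 with the combination. Plk1 shares 156 exon bases with Gm44985 on the opposite strand. Aurkb counts were 0, 3 and 8 with vehicle, 0, 0 and 6 with ethanol, 2, 5 and 15 with DEHP, and 1, 2.5 and 7 with the combination. In the ethanol group 5 of 6 libraries listed no Aurkb. Bub1b, a spindle checkpoint kinase, held 2, 4.5 and 8 with vehicle, 1, 4 and 10 with ethanol, 3, 10 and 23 with DEHP, and 1, 3 and 5 with the combination, and its relative Bub1 at most 5 in any library and 26 in all. Mki67, the proliferation marker Ki-67, held 8, 12.5 and 22 with vehicle, 2, 5.5 and 18 with ethanol, 10, 20 and 48 with DEHP, and 4, 10 and 11 with the combination. Replicate 3 carried the highest DEHP value for Mki67, as for Top2a. Top2a, which untangles sister chromatids, held 2, 6 and 22 with vehicle, 1, 4.5 and 12 with ethanol, 5, 19.5 and 50 with DEHP, and 3, 6 and 16 with the combination. Foxm1, a factor for G2 and mitosis genes, held 1, 2.5 and 9 with vehicle, 0, 2 and 8 with ethanol, 2, 6 and 16 with DEHP, and 0, 3 and 15 with the combination. Under edgeR's own filter the DEHP changes of Mki67 (0.84 ± 0.41, adjusted p = 0.136) and Top2a (1.18 ± 0.51, adjusted p = 0.0932) were not called, and Plk1, Aurkb, Bub1, Bub1b and Foxm1 were not called with no filter.

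Of the licensing and S phase genes below the filter, Uhrf1, which keeps DNA methylation through replication, held 2, 4 and 16 with vehicle, 0, 1.5 and 4 with ethanol, 10, 13.5 and 17 with DEHP, and 0, 3.5 and 9 with the combination. The 6 DEHP libraries were within 10 to 17, while 2 ethanol libraries listed none. Under edgeR's own filter Uhrf1 was lower with ethanol (log2 change -1.90 ± 0.67, adjusted p = 0.0309; 13.2% of all genes were called lower), a call lost with no filter (adjusted p = 0.0501), and at 0.93 ± 0.49 (adjusted p = 0.166) with DEHP. Cdc6, the helicase loader, held 0, 1.5 and 5 with vehicle, 0, 0 and 1 with ethanol, 1, 3 and 5 with DEHP, and 0, 2 and 3 with the combination. With no filter Cdc6 was called lower with ethanol (adjusted p = 0.0294) on 1 count in all ethanol libraries against 12 in all vehicle libraries, a depth-scaled ratio of 0.0808 with an exact 95% interval of 0.00189 to 0.546 that covers counting error only. Ccne2, cyclin E2, held 6, 7.5 and 18 with vehicle, 3, 6 and 12 with ethanol, 3, 5.5 and 14 with DEHP, and 1, 4.5 and 5 with the combination. The combination libraries were all below the vehicle libraries. Ccne2 was called lower in the combination against vehicle with no filter (-1.36 ± 0.46, adjusted p = 0.0317), and it shares 609 exon bases with Ints8 on the opposite strand. Ccne1, cyclin E1, held 0, 2.5 and 6 with vehicle, 0, 7.5 and 12 with ethanol, 1, 3 and 7 with DEHP, and 3, 6.5 and 9 with the combination. Chek1, the replication checkpoint kinase, held 1, 3.5 and 8 with vehicle, 1, 3 and 7 with ethanol, 2, 6 and 10 with DEHP, and 2, 6.5 and 19 with the combination. Neither Ccne1 nor Chek1 was called in any comparison with no filter.

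Adding ethanol to DEHP moved no member past the threshold. In the combination against DEHP 0 of 22 members were called by edgeR, by DESeq2 or by limma on log2(FPKM + 1), beside 0.0467% of all tested genes higher and 0.0748% lower. At an unadjusted p below 0.05, 8 members were lower by edgeR, 8 by DESeq2 and 10 by limma, and 0 higher. The share of all genes at that p is not given here, so these counts have no background. The median log2 change of the 22 was -0.45, beside 0.00 for all tested genes, and 21 of 22 were negative. Some members passed the filter mostly in groups where they were high, DEHP among them, so these counts are a description. With no filter, 34 of 38 were negative (median -0.54, beside 0.00 for all genes). Rrm1 was at -0.50 ± 0.14 (adjusted p = 0.2), with all 6 combination libraries below the DEHP mean. Mcm6 stood at -0.71 ± 0.23 (adjusted p = 0.272), Cdc20 at -1.28 ± 0.43 (adjusted p = 0.29) and Rrm2 at -0.80 ± 0.28 (adjusted p = 0.309). Gins1 had -0.05 ± 0.19 (adjusted p = 0.941). A p that misses the threshold does not show that the groups were alike.

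Set against ethanol, the combination had 9 of 22 members higher and 2 lower, beside 15.1% and 12.7% of all tested genes. The rises were Mcm6 (1.76 ± 0.26, adjusted p = 1.22e-05), Mcm4, Gins1, Lig1 (1.03 ± 0.21, adjusted p = 0.000528), Cdc45, Mcm5, Mcm2, Mcm3 and Gins2, between 0.67 and 1.76 on the log2 scale. Gins2 (1.47 ± 0.48, adjusted p = 0.0195) lost its call without combination replicate 5 and Mcm3 without combination replicate 2. Cdt1 and Mcm10 fell. The interaction called 0 members higher and 2 lower (Cdt1 and Cdc20), beside 3.32% and 3.09% of genes.

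Deposited FPKM ranges of the 22 tested members were also compared without a model. DEHP was above vehicle with no overlap for Mcm3, Mcm6, Cdc45, Gins1, Lig1 and Cdc20, beside 7.24% of all tested genes. Cdc45 and Cdc20 reached 1 FPKM in 8 and 11 libraries, most of them in groups where they were high. The list of names is therefore a description. The combination was above vehicle for Mcm6 and Gins1 alone (10.7% of genes), and ethanol for Cdt1 alone (3.9%). Both are about the share of genes at large. The combination was above ethanol for Mcm3, Mcm5, Mcm6, Gins1 and Lig1 (11.3%) and below it for Cdt1 alone (4.36%), the latter again about the share at large.

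Other genes of the same machinery were read from lists, which were chosen with earlier results of these data known. Of 51 further replication genes 35 were tested, and 13 were higher and 2 lower with DEHP (median log2 change 0.42, against -0.02 for all genes), 11 and 1 with the combination (0.22) and 6 and 1 with ethanol (0.18). The shares higher were 37.1%, 31.4% and 17.1%, beside 14.4%, 19.3% and 14.2% of all tested genes, so that ethanol was near the background. With no filter, 9 of 51 were higher with DEHP, 9 with the combination and 6 with ethanol, beside 7.57%, 10.2% and 7.55% of all genes. Pold2, a subunit of polymerase delta, rose with DEHP (0.90 ± 0.11, adjusted p = 1.51e-06) and with the combination (1.09 ± 0.11, adjusted p = 4.83e-08). Rpa1, which coats single-stranded DNA, rose with DEHP (0.69 ± 0.10, adjusted p = 1.31e-05), as did Chaf1a (1.76 ± 0.30, adjusted p = 0.000103), which lays histones behind the fork, and Gins4 (0.51 ± 0.11, adjusted p = 0.00145). Of 60 further mitosis genes 15 were tested, with 7 higher and 0 lower with DEHP (median 0.44), 4 and 0 with the combination (0.38) and 2 and 0 with ethanol (0.31). The shares higher were 46.7%, 26.7% and 13.3%, the last near the 14.2% of all genes. Few of the 60 passed the filter, which lets in low genes through groups where they are high. With no filter, DEHP called 12 of 60 higher and 0 lower (median 0.97), beside 7.57% of all genes higher. The combination then called 5 higher and 1 lower (0.13), beside 10.2% higher, and ethanol 2 and 0 (0.28), beside 7.55%. Nek2, a centrosome kinase, rose with DEHP (1.46 ± 0.21, adjusted p = 1.06e-05) and with ethanol (1.19 ± 0.21, adjusted p = 0.000244), and its interaction was -1.77 ± 0.29 (adjusted p = 0.000649). The kinetochore subunits Spc25 and Spc24 rose with DEHP by 0.96 ± 0.17 (adjusted p = 0.000151), and by 0.79 ± 0.15 (adjusted p = 0.000514). Of 16 other G1/S genes 14 were tested, and DEHP called 2 higher (14.3%, beside 14.4% of all genes) and 0 lower. The combination called 4 higher (28.6%, beside 19.3%) and 2 lower (14.3%, beside 17.4%). Ethanol called 1 higher (7.14%, beside 14.2%) and 2 lower (14.3%, beside 14.5%). The 2 called with DEHP were Ccnd3 (0.38 ± 0.09, adjusted p = 0.00211), cyclin D3, and its kinase Cdk4 (0.34 ± 0.09, adjusted p = 0.0044).

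Among 26 genes that restrain the cycle, of which 21 were tested, Cdkn1a, Wee1 and Cdkn2c changed in all 3 comparisons against vehicle. Cdkn1a, the kinase inhibitor p21, had an FPKM of 43.2 to 83.7 with vehicle, 1.18 to 2.34 with ethanol (median 1.28), 20.7 to 36.8 with DEHP (35.2) and 16.8 to 25.9 with the combination (24.3). It fell by 5.15, 0.80 and 1.30 on the log2 scale with ethanol, DEHP and the combination (adjusted p = 4.76e-15, 0.00059 and 1.08e-06), and no treated library reached the vehicle range. The interaction was 4.65 ± 0.27 (adjusted p = 1.36e-11). Wee1, which holds Cdk1 inactive, rose by 1.49 ± 0.24 (adjusted p = 9.36e-05) with ethanol, by 0.90 ± 0.25 (adjusted p = 0.00847) with DEHP and by 0.65 ± 0.25 (adjusted p = 0.0413) with the combination. Cdkn2c, the inhibitor p18, rose by 0.83 ± 0.19 (adjusted p = 0.00225) with ethanol, by 0.69 ± 0.19 (adjusted p = 0.00771) with DEHP and by 0.58 ± 0.19 (adjusted p = 0.017) with the combination. Ccnd2, cyclin D2, which is on the G1/S list, fell with ethanol (-0.55 ± 0.20, adjusted p = 0.0396). Cdkn1b, the inhibitor p27, and Ccng1, a p53 target, were not called in any comparison. On the whole list of brakes ethanol called 2 higher and 5 lower, DEHP 2 and 2, and the combination 3 and 2. The shares lower were 23.8%, 9.52% and 9.52%, beside 14.5%, 11.6% and 17.4% of all genes, and the shares higher (9.52%, 9.52% and 14.3%) were below those of all genes.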

How the data were processed

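Liver RNA was sequenced from 4 groups of 6 libraries each. For every library the authors deposited expected counts and FPKM per gene, per the file headers. The FPKM were scaled by the authors to gene length and to the reads of the library. Cuffdiff and the builds mm10 and GRCm38 are named in the submitters' processing notes, with no version or role for the tool. No source used here names the aligner, the counting program or the use of strand. Between 94.5% and 95.3% of the expected counts per library were whole numbers.

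Expected counts were rounded and tested with edgeR 4.0.16 (R 4.3.3) by its quasi-likelihood F test, with TMM scaling, 4 groups, no covariate and 20 residual degrees of freedom. Genes with at least 1 FPKM in at least 6 of 24 libraries entered, and p-values were Benjamini-Hochberg adjusted over all 10697 of them. The interaction is the ethanol effect with DEHP less that without it. The SE was derived as the size of the unshrunk log2 change divided by the square root of F. The printed log2 change is edgeR's shrunken value, so at low counts the SE does not match it exactly. The fits were tested on simulated data. Members, gene lists and tests were chosen with earlier results of these data known. Values were given for members called in at least 1 comparison and counts for the others. Of each other list, at most 4 genes with the smallest adjusted p per comparison were named, plus Cdkn1a, Cdkn1b, Wee1, Ccng1 and Ccnd2. The alternatives were DESeq2 1.42.0, limma 3.58.1 on log2 FPKM with pseudocounts of 1 and 0.1 and on log2(TPM + 1), with TPM computed from the deposited FPKM, filterByExpr (minimum count 10), no filter, removal of the length trend, the 2 compared groups alone, a replicate block, and leaving out libraries. Totals of 7324793 to 8016662 counts per library set the precision, and the exact interval covers counting error only.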

Additional observations from a re-analysis of the deposited data

Results flagged for a closer look

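In each group of 6 libraries, the highest and the lowest FPKM of each tested member were compared with the other 5. A library was picked out where its gap to the nearest other as a share of the range of the group was above Dixon's 95% critical value. Of 88 combinations of member and group, 8 held such a library. For normally distributed values chance gives about 1 in 20, and whether the FPKM follow that distribution was not tested.

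Mcm3 was at 0.98 FPKM in ethanol replicate 1, while the others of that group were at 1.44 to 1.62, and at 5.45 in DEHP replicate 1, against 2.16 to 3.36. Ccnd1 was at 9.69 in that same DEHP library, against 4.32 to 6.19. Mcm10 was at 17.27 in combination replicate 4, against 5.32 to 9.45. Gins1 was at 6.39 in combination replicate 1, against 3.58 to 4.62. Rrm1 was at 2.26 in ethanol replicate 4, against 1.53 to 1.72. Lig1 was at 1.65 in vehicle replicate 3, against 0.72 to 0.94. E2f1 was at 2.54 in vehicle replicate 2, against 1.1 to 1.61.

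The effect of ethanol differed with and without DEHP for Cdt1 (interaction log2 change -1.708, edgeR adjusted p = 0.00443) and for Cdc20 (-3.601, adjusted p = 0.00302).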

How the results depend on the processing

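No called change of a member reversed under any alternative run. Of the 132 member changes tested, 22 had another sign in at least 1 alternative, 0 of them called and all at 0.181 or less in size. The count of mitosis genes called in DEHP against vehicle was 2, and 1 when the model held the 2 compared groups alone. It was 3 of 7 tested under filterByExpr, with Cdk1 added, beside 13.4% of all genes called higher. With no filter it was 2 of 14, beside 7.57% of all genes, and there Cdk1 was called and Aurka was not. The count of mitosis genes ranged from 1 to 3 when single libraries were left out. The 12 licensing and S phase genes called in that comparison became 11 to 12 without single libraries. In the combination against vehicle the 9 calls of that set ranged from 7 to 9 under the other settings and from 6 to 10 without single libraries, with 6 left without vehicle replicate 4, vehicle replicate 6 or combination replicate 2. Against ethanol the 11 calls were 11 to 12, and 10 to 12 without single libraries. The cause of these changes was not tested. Over all genes, the combination against DEHP called 13, against 44 by DESeq2, 7 and 6 by limma, 1 with no filter, 2 with the length trend removed, 6 in the 2 groups alone, 8 without the 3 libraries with transcripts of other tissues, and 0 to 44 in all. The interaction called 686 genes, and 365 without those 3 libraries.

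Replicate numbers did not pair the libraries: the mean correlation of same-numbered libraries was -0.054 to 0.046, and at most 2 of 6 libraries correlated best with their own number. With a replicate block, the combination against vehicle called 8 licensing and S phase genes, with Cdc45 at an adjusted p of 0.0535, the combination against ethanol called 12, with Ccnd1 gained (-0.44, adjusted p = 0.0482), and the combination against DEHP called 5 of all genes. At 45 to 364 expected counts per library over all 14 mitosis genes, counting error limits the precision of their values.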
